A study of Mus musculus with 8 samples.

Results

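Chemokines are small secreted proteins that direct the movement of leukocytes, and their receptors sit in the membrane of the cells that respond. The genes described here were taken by symbol from whole-liver RNA-seq: every Ccl and Cxcl ligand, every Ccr and Cxcr receptor, the atypical receptors Ackr1 to Ackr4, and Cx3cl1, Cx3cr1, Xcl1 and Xcr1. The rule gave 60 genes of the 56953 gene IDs in the count files, 38 of them ligands and 22 receptors. At least 1 read was counted for 57 of the 60, and 38 had enough counts to be tested, namely 24 ligands and 14 receptors.

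The study compared 4 HSC-PCK1-KO mice with 4 wild-type control mice. In the HSC-PCK1-KO mice phosphoenolpyruvate carboxykinase 1, an enzyme of gluconeogenesis, was removed from hepatic stellate cells, the pericytes of the liver sinusoid that turn into matrix-producing cells in fibrosis. All 8 mice were adult males, all were fed CDHFD, a choline-deficient diet rich in fat, over 8 weeks, and all libraries carried the same batch label. CDHFD is used to model steatohepatitis with fibrosis, both groups received it, and livers on another diet were not analysed here. The labels give neither the strain, nor the age in weeks, nor the promoter that drives the deletion.

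Each receptor couples to inhibitory G proteins and pulls its cell up a gradient of ligand, while the atypical receptors bind ligands without that signal and take them up. CC ligands such as Ccl2 mainly draw monocytes, T cells and dendritic cells, and CXC ligands divide into those that draw neutrophils through Cxcr2, those that interferon induces and that draw T cells through Cxcr3, and homeostatic ones such as Cxcl12. In steatohepatitis the axis of Ccl2 and Ccr2 is best known for bringing monocytes into the liver.

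Sequencing gave between 44695439 and 49477255 counted reads per library, and levels are given as CPM, each gene's counts divided by the library's total and put on a common scale by trimmed mean of M values (TMM). The targeted gene, Pck1, had 339, 795, 593 and 948 CPM in HSC-PCK1-KO livers 1 to 4, against 1002, 2012, 551 and 1028 CPM in control livers 1 to 4. The groups overlapped, and the log2 fold change was -0.78 ± 0.44 (SE; edgeR adjusted p = 0.9998). Since most Pck1 RNA of a liver comes from hepatocytes, these values cannot show whether the stellate cells lost it. Whole-liver RNA also cannot tell fewer cells of a type apart from less RNA per cell, for every gene described here.

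Many inflammatory chemokine genes are textbook targets of the transcription factors NF-kB and the interferon-regulatory factors. The 250 bases before the start site are shown for 4 inducible ligands and for the homeostatic Cxcl12, to set the letters of such motifs beside the levels that follow. They are RefSeq sequences of build GRCm38.p6, read along the gene's own strand from chr5:92348890-92349139 (minus strand, Cxcl10), chr5:92328080-92328329 (minus, Cxcl9), chr5:90890995-90891244 (plus, Cxcl1), chr8:94745434-94745683 (plus, Ccl22) and chr6:117168285-117168534 (plus, Cxcl12). Capitals mark the letters GGGNNNNNCC (NF-kB) and GAAANNGAAA (interferon-stimulated response element), searched on both strands.
Cxcl10: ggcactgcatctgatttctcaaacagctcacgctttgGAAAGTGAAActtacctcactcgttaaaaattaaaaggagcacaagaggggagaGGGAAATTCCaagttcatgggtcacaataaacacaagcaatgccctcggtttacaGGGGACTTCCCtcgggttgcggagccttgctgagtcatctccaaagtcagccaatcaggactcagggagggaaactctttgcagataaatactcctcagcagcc
Cxcl9: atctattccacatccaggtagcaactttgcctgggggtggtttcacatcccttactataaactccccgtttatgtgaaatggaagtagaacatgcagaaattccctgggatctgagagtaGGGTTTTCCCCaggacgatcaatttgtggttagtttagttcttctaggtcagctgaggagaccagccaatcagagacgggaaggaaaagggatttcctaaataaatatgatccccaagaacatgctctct
Cxcl1: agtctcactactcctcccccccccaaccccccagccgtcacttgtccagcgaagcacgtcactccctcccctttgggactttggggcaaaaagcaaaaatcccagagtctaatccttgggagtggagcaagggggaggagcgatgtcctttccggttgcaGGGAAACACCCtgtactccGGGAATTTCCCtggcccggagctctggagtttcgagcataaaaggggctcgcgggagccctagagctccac
Ccl22: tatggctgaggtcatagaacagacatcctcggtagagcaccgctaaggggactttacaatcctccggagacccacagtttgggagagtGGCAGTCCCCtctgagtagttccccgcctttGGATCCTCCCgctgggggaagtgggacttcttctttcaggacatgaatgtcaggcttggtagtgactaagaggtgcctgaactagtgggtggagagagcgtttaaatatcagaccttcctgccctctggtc
Cxcl12: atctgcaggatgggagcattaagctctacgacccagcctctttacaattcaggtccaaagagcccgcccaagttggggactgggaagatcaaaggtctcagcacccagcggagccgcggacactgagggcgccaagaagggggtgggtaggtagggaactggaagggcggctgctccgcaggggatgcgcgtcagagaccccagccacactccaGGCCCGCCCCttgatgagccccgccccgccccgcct
Cxcl10, an interferon-induced ligand, held 1 interferon-stimulated match that starts 213 bases before the start site, and NF-kB matches starting 159, 104 and 103 bases before it. The last 2 of these overlap and run together in capitals. Cxcl1 had its NF-kB letters in 2 stretches, Ccl22 likewise in 2, Cxcl9 in 1 and Cxcl12 in 1. The NF-kB letters are common: they stood in 51.9% of the 52 promoters that matched 45 of the 60 members, against 45.8% of all 32851 promoters of the table. The interferon-stimulated letters stood in 5.77% of the members' promoters (3 of 52) and in 2.98% of all promoters. TTCNNNGAA, the gamma-activated site (GAS), was also searched and stood in 5.77% of the members' promoters (3 of 52) and in 7.02% of all. TATAAA, the TATA box, stood in 26.9% of the members' promoters and in 12.4% of all. A match is a run of letters and not evidence of binding.

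No chemokine or receptor gene passed the test between HSC-PCK1-KO and control livers. Of the 38 tested members, 0 were higher and 0 were lower at an adjusted p of 0.05 (edgeR quasi-likelihood test, Benjamini-Hochberg over all 15669 genes tested), against a background of 0% of all genes in either direction. At an unadjusted p of 0.05 the count was 0 of 38 members, beside 370 genes or 2.36% of all. DESeq2 called 0 members and 6 genes, and limma-voom called 0 members and 0 genes. Every tested member had an adjusted p of 0.9998. In no member did the 4 HSC-PCK1-KO values stand wholly above or below the 4 control values, while 1.53% of all genes tested had groups that did not overlap.

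Fold changes of the members were spread around 0. The log2 fold change was above 0 for 15 members and below 0 for 23, with a median of -0.066, beside a median of -0.0055 over all genes, of which 51.8% lay below 0. It ran between -0.74 for Cxcl2 and 0.79 for Cxcl13. By class the medians were -0.0076 over 14 CC ligands, -0.055 over 9 CXC ligands, -0.13 over 10 typical receptors and -0.056 over the 4 atypical receptors. The intervals show how large a difference these livers could still hold: the 95% interval lay within 2-fold of no change for 19 of 38 members, against 86.7% of all genes. A 2-fold higher level in HSC-PCK1-KO livers lay outside the interval for 24 members, and a 2-fold lower level for 24.

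**Figure D1:**
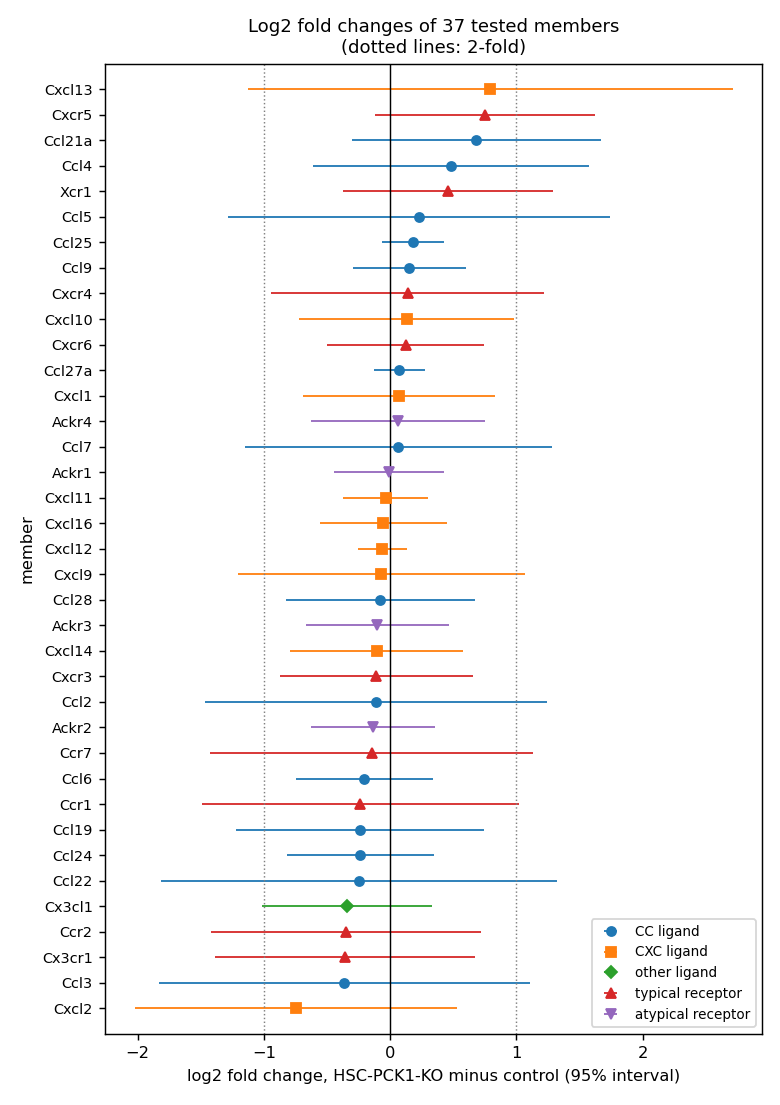
Log2 fold change of 37 of the 38 tested members (HSC-PCK1-KO minus control, n = 4 each), with the 95% interval of the edgeR fit as a line, colour and shape for the class of the gene, and dotted lines at 2-fold. Every interval drawn crosses 0, and they run from narrow for Cxcl12, Ccl27a and Ccl25 to wide for Cxcl13, Ccl5 and Ccl22.

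Cxcl12, which binds Cxcr4 and Ackr3 and retains leukocytes and progenitors in tissues, made up most of the family's summed CPM in both groups. CPM is not corrected for gene length, and Cxcl12 has 8176 exon bases. Its share of the summed CPM of all 60 members was 70.1% ± 0.40 in HSC-PCK1-KO livers and 71.6% ± 4.93 in controls (SD, n = 4 each). Summed over the family, the level was 581 ± 46.2 CPM in HSC-PCK1-KO livers and 596 ± 60.9 CPM in controls. Without Cxcl12 it was 173 ± 14.7 CPM in HSC-PCK1-KO livers and 171 ± 45.9 CPM in controls, so that the means lay closer than the spread within either group. Receptors summed to 23.7 ± 3.39 CPM in HSC-PCK1-KO livers and to 26.4 ± 7.80 CPM in controls.

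Per kilobase of exon, the level of Cxcl12 averaged 50.9 CPM over the 8 livers, followed by Ccl9 with 19.3, Ccl6 with 6.90, Cxcl9 with 5.26, Cxcl10 with 3.49 and Cxcl16 with 3.44. The receptors stood below these ligands on that scale. Among the receptors Ackr2 averaged 0.787 CPM per kilobase, Cxcr4 0.698 and Ackr1 0.679. Several ligands stood lower than these receptors, such as Ccl4 with 0.662, Ccl22 with 0.303 and Cxcl2 with 0.247. Exon lengths for this scale came from the GENCODE M21 annotation.

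Among the CC ligands, Ccl9 and Ccl6 had the highest levels. Both are ligands of Ccr1 that are known from mouse. Ccl9 (ENSMUSG00000019122.9) had 60.9, 81.2, 61.5 and 43.8 CPM in HSC-PCK1-KO livers 1 to 4, against 47.8, 45.0, 59.3 and 70.3 CPM in control livers 1 to 4. Its log2 fold change was 0.15 ± 0.20 (± SE here and below; 95% interval -0.30 to 0.60), and the highest and the lowest liver were both HSC-PCK1-KO livers. Ccl6 had 11.8, 8.85, 8.85 and 16.5 CPM in the HSC-PCK1-KO livers and 10.3, 12.6, 11.9 and 18.3 CPM in the controls. Controls 2, 3 and 4 lay above HSC-PCK1-KO livers 1 to 3, but HSC-PCK1-KO liver 4 was second to control 4 only, and the log2 fold change was -0.21 ± 0.24 (95% interval -0.75 to 0.34). It was -0.43 without HSC-PCK1-KO liver 4 and -0.0078 without control 4.

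Ccl2, the main ligand of Ccr2 and the best known monocyte attractant, differed more between livers of a group than between the groups. Ccl2 (ENSMUSG00000035385.6) had 1.23, 3.06, 2.62 and 4.33 CPM in HSC-PCK1-KO livers 1 to 4, against 3.04, 0.731, 2.32 and 5.99 CPM in control livers 1 to 4. Control 4 was the highest and control 2 the lowest of all 8, which put both ends of an 8.20-fold range among the controls. The means were 2.81 ± 1.28 CPM in HSC-PCK1-KO livers and 3.02 ± 2.20 CPM in controls (SD, n = 4 each), with a log2 fold change of -0.11 ± 0.59 (95% interval -1.47 to 1.25). Ccl7, which also binds Ccr2 and lies beside Ccl2 in the genome, ranged over 0.156 to 0.467 CPM in HSC-PCK1-KO livers and 0.0472 to 0.574 CPM in controls. It too was highest in control 4 and lowest in control 2.

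Ccl5, made by T and NK cells, had 1.56, 2.09, 2.06 and 6.83 CPM in HSC-PCK1-KO livers 1 to 4, against 2.01, 1.11, 1.65 and 5.88 CPM in control livers 1 to 4. HSC-PCK1-KO liver 4 and control 4 stood far above the other 6 livers, which held between 1.11 and 2.09 CPM. The log2 fold change of 0.23 ± 0.65 (95% interval -1.28 to 1.74) turned to -0.49 without HSC-PCK1-KO liver 4 and became 0.98 without control 4. Ccl4, an inflammatory ligand made by activated leukocytes, had 0.357, 0.463, 0.603 and 0.630 CPM in the HSC-PCK1-KO livers and 0.203, 0.142, 0.275 and 0.823 CPM in the controls. HSC-PCK1-KO livers 1 to 4 lay above controls 1 to 3 and below control 4. Its log2 fold change was 0.48 ± 0.49 (95% interval -0.61 to 1.58), and 1.30 without control 4. Ccl3, which binds Ccr1, ranged over 0.112 to 0.249 CPM in HSC-PCK1-KO livers and 0.0423 to 0.555 CPM in controls.

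Ccl25, the ligand of Ccr9 that guides cells of thymus and gut, stood nearest to the threshold of the CC ligands. It had 7.06, 7.46, 7.56 and 6.73 CPM in the HSC-PCK1-KO livers and 6.03, 7.57, 6.17 and 5.71 CPM in the controls. Controls 1, 3 and 4 lay below every HSC-PCK1-KO liver and control 2 lay above them all, and the log2 fold change was 0.18 ± 0.11 (95% interval -0.067 to 0.42), or 0.27 without control 2. Ccl24, an eotaxin that binds Ccr3 on eosinophils, had 2.08, 1.53, 2.24 and 3.27 CPM in the HSC-PCK1-KO livers and 2.68, 3.47, 1.73 and 2.89 CPM in the controls. The groups overlapped over most of their range (log2 fold change -0.24 ± 0.26, 95% interval -0.82 to 0.34), and the fold change was -0.46 without HSC-PCK1-KO liver 4 and -0.087 without HSC-PCK1-KO liver 2. Ccl27a, a ligand of Ccr10, varied least of all members between its highest and lowest liver, with 7.15, 7.92, 6.86 and 7.52 CPM in the HSC-PCK1-KO livers and 6.64, 6.77, 7.29 and 7.29 CPM in the controls. Its livers differed by no more than 1.19-fold, and the log2 fold change was 0.073 ± 0.091 (95% interval -0.13 to 0.27), with 0.036 without HSC-PCK1-KO liver 2 at the low end of leaving 1 liver out.

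Ccl21a and Ccl19, the ligands of Ccr7 that draw dendritic cells and naive T cells along lymphatics, share sequence with near-identical copies, so their counts are uncertain. In GENCODE M21, 50.3% of the 100-base windows of Ccl21a transcripts, a read's length, also occur in Ccl21b or predicted copies, and 39.3% of those of Ccl19 occur in pseudogenes and predicted copies. Ccl27a shares 26.5% of its windows in the same way, with Ccl27b and predicted copies. Ccl21a had 0.648, 0.583, 0.332 and 0.488 CPM in the HSC-PCK1-KO livers and 0.284, 0.0708, 0.402 and 0.498 CPM in the controls. Control 2 was far below the other 7 livers, and the log2 fold change of 0.68 ± 0.44 (95% interval -0.30 to 1.67) became 0.37 without it. Ccl19 ranged over 0.223 to 0.874 CPM in HSC-PCK1-KO livers and 0.354 to 0.689 CPM in controls, Ccl22, a ligand of Ccr4, over 0.268 to 0.894 CPM in HSC-PCK1-KO livers and 0.165 to 1.91 CPM in controls, and Ccl28, a mucosal ligand of Ccr10, over 0.223 to 0.523 CPM in HSC-PCK1-KO livers and 0.275 to 0.495 CPM in controls. None of these groups stood apart.

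Cxcl12 (ENSMUSG00000061353.12), the most abundant member, had 399, 403, 375 and 451 CPM in HSC-PCK1-KO livers 1 to 4, against 404, 449, 398 and 449 CPM in control livers 1 to 4. The groups overlapped and the whole range was 1.20-fold. The log2 fold change was -0.062 ± 0.088, and its 95% interval of -0.26 to 0.13 was the narrowest of the family. Leaving out HSC-PCK1-KO liver 4 gave -0.11 and leaving out HSC-PCK1-KO liver 3 gave -0.025.

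The interferon-induced ligands of Cxcr3, which draw activated T cells and NK cells, lie side by side on chromosome 5. Cxcl9 had 12.0, 9.77, 10.4 and 29.8 CPM in HSC-PCK1-KO livers 1 to 4, against 18.3, 7.57, 14.4 and 24.7 CPM in control livers 1 to 4. HSC-PCK1-KO liver 4 held the highest value and control 2 the lowest, and the log2 fold change was -0.069 ± 0.48 (95% interval -1.20 to 1.06). Cxcl10 had 5.76, 8.39, 7.89 and 10.9 CPM in the HSC-PCK1-KO livers and 7.22, 3.70, 5.73 and 13.3 CPM in the controls. As with Ccl2, control 4 was highest and control 2 lowest, with a log2 fold change of 0.13 ± 0.37 (95% interval -0.72 to 0.98). Cxcl11, the third of them, did not follow that order: it ranged over 4.24 to 6.81 CPM in HSC-PCK1-KO livers and 5.05 to 5.94 CPM in controls, highest in HSC-PCK1-KO liver 1. Since 41.7% of its exon bases overlap Gm2673 on the other strand in GENCODE M21, and the strand setting of the counting is not given, reads of the pair may not be told apart. The same holds for 18.3% of the exon bases of Cxcl16, with Zmynd15.

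The neutrophil attractants Cxcl1 and Cxcl2 act through Cxcr2. Cxcl1 had 5.56, 4.30, 3.89 and 9.17 CPM in the HSC-PCK1-KO livers and 4.79, 3.84, 4.44 and 8.75 CPM in the controls. Liver 4 of each genotype was the highest of its group, and the log2 fold change was 0.068 ± 0.33 (95% interval -0.69 to 0.83). Cxcl2 had 0.268, 0.322, 0.582 and 0.366 CPM in the HSC-PCK1-KO livers and 0.507, 0.259, 0.275 and 1.51 CPM in the controls. Its log2 fold change of -0.74 ± 0.57 (95% interval -2.02 to 0.53) was the lowest of the family and rested on control 4, since it became 0.14 without that liver. Cxcl5, a further ligand of Cxcr2, and Cxcr2 itself were too low to test. Cxcr2 had 9, 3, 3 and 5 counts in HSC-PCK1-KO livers 1 to 4, against 7, 4, 0 and 26 counts in control livers 1 to 4.

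Cxcl16, a membrane-bound ligand of Cxcr6 that macrophages and sinusoidal cells carry, had 10.7, 9.23, 9.41 and 11.5 CPM in the HSC-PCK1-KO livers and 10.2, 6.89, 9.24 and 15.9 CPM in the controls. All HSC-PCK1-KO values lay between those of controls 2 and 4 (log2 fold change -0.055 ± 0.22, 95% interval -0.56 to 0.45). Cxcl13, which draws B cells through Cxcr5, had 6.05, 0.503, 0.852 and 1.08 CPM in HSC-PCK1-KO livers 1 to 4, against 1.85, 0.684, 0.571 and 1.74 CPM in control livers 1 to 4. HSC-PCK1-KO liver 1 alone set the highest fold change of the family, 0.79 ± 0.83 (95% interval -1.13 to 2.71): without it the log2 fold change was -0.59. Cxcl14 ranged over 1.14 to 2.33 CPM in HSC-PCK1-KO livers and 0.943 to 2.60 CPM in controls. Cx3cl1, fractalkine, the ligand of Cx3cr1, had 0.536, 0.925, 1.04 and 1.26 CPM in the HSC-PCK1-KO livers and 1.06, 0.802, 1.18 and 1.72 CPM in the controls. It was lowest in HSC-PCK1-KO liver 1 and highest in control 4, with a log2 fold change of -0.34 ± 0.30 (95% interval -1.02 to 0.33), which was -0.51 without HSC-PCK1-KO liver 4 and -0.11 without control 4.

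**Figure D2:**
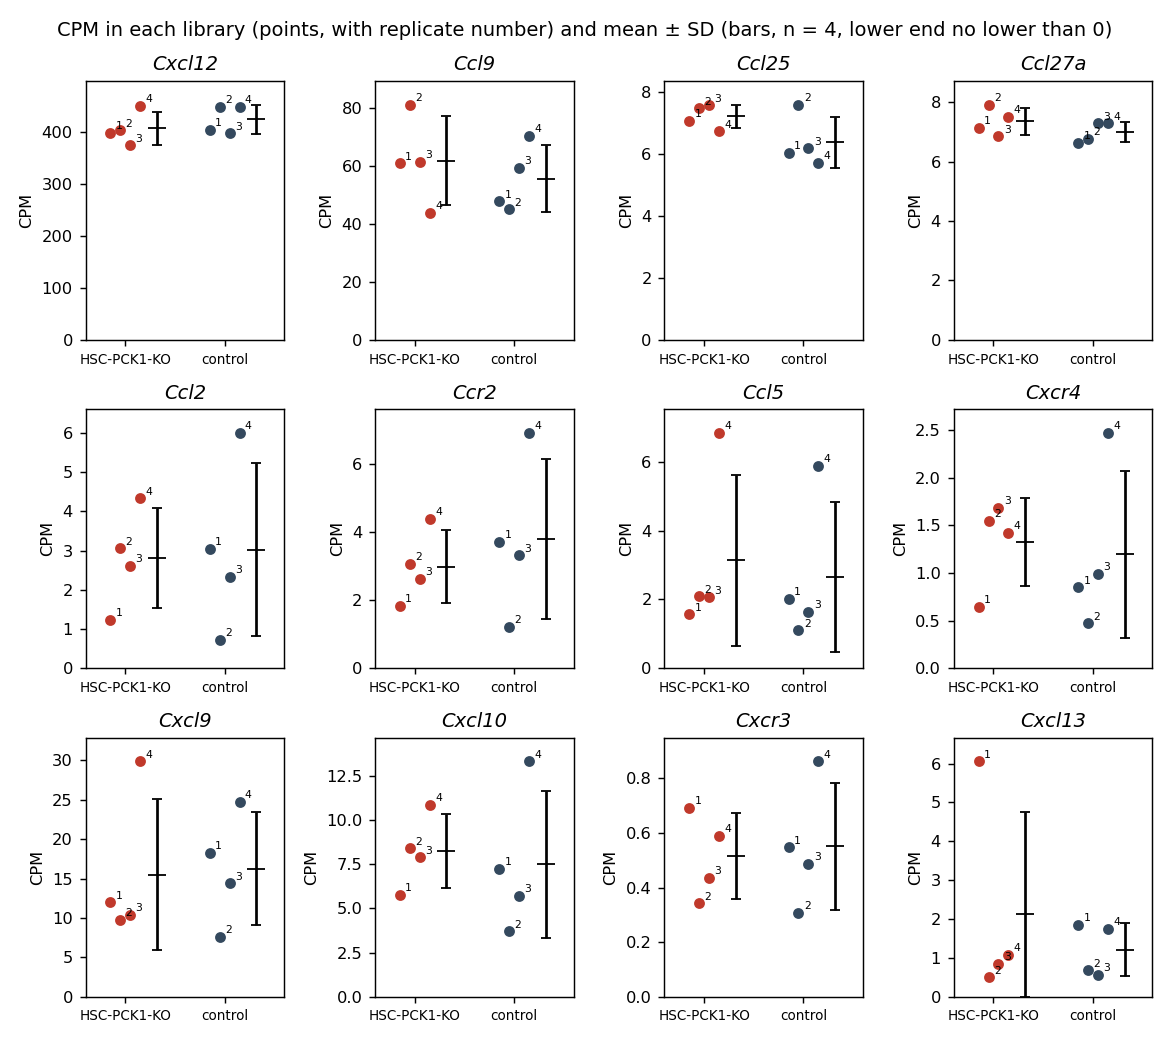
CPM of 12 members in each of the 8 livers (points, numbered by replicate) with the mean ± SD beside them (n = 4 each, red HSC-PCK1-KO, dark blue control, each vertical axis from 0; an SD bar that would pass below 0 ends there). Cxcl12, Ccl25 and Ccl27a lie close together, while Ccl2, Ccr2, Ccl5, Cxcr4 and Cxcl10 have their highest control in replicate 4 and Cxcl13 has 1 HSC-PCK1-KO liver far above the rest.

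Ccr2 is the receptor that marks inflammatory monocytes. Ccr2 (ENSMUSG00000049103.15) had 1.83, 3.08, 2.64 and 4.39 CPM in HSC-PCK1-KO livers 1 to 4, against 3.71, 1.23, 3.32 and 6.91 CPM in control livers 1 to 4. The order of the livers was nearly that of Ccl2, with control 4 highest and control 2 lowest, and the log2 fold change was -0.35 ± 0.47 (95% interval -1.42 to 0.72). Ccr1 ranged over 0.0894 to 0.353 CPM in HSC-PCK1-KO livers and 0.106 to 0.632 CPM in controls and Ccr7, the receptor for Ccl19 and Ccl21a, over 0.536 to 0.704 CPM in HSC-PCK1-KO livers and 0.189 to 1.42 CPM in controls.

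Cx3cr1, carried by patrolling monocytes and some macrophages, had 0.514, 2.03, 1.95 and 1.77 CPM in the HSC-PCK1-KO livers and 2.21, 1.11, 1.33 and 3.35 CPM in the controls. HSC-PCK1-KO liver 1 was the lowest of all 8 and control 4 the highest (log2 fold change -0.35 ± 0.46, 95% interval -1.38 to 0.68). Cxcr4, the receptor for Cxcl12 on most leukocytes, had 0.648, 1.55, 1.68 and 1.42 CPM in the HSC-PCK1-KO livers and 0.852, 0.472, 0.993 and 2.47 CPM in the controls. HSC-PCK1-KO livers 2 to 4 lay above controls 1 to 3, but control 4 lay above all, and the log2 fold change was 0.14 ± 0.48 (95% interval -0.94 to 1.22). It became 0.77 without control 4.

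The receptors of lymphocytes were low. Cxcr3, on activated T and NK cells, had 0.693, 0.342, 0.436 and 0.589 CPM in the HSC-PCK1-KO livers and 0.548, 0.307, 0.486 and 0.862 CPM in the controls, a log2 fold change of -0.11 ± 0.34 (95% interval -0.88 to 0.66). Cxcr6, on resident T and NKT cells, had 0.894, 0.523, 0.540 and 1.14 CPM in the HSC-PCK1-KO livers and 0.670, 0.708, 0.676 and 0.785 CPM in the controls, a log2 fold change of 0.12 ± 0.28 (95% interval -0.50 to 0.75). In both the groups overlapped, and the controls of Cxcr6 lay close together. Cxcr5, the receptor for Cxcl13 on B cells and follicular helper T cells, stood nearest to the threshold of the family. It had 0.514, 0.241, 0.249 and 0.508 CPM in HSC-PCK1-KO livers 1 to 4, against 0.345, 0.142, 0.169 and 0.230 CPM in control livers 1 to 4. HSC-PCK1-KO livers 1 and 4 lay above every control, and livers 2 and 3 lay above controls 2, 3 and 4. The means were 0.378 ± 0.153 CPM in HSC-PCK1-KO livers and 0.221 ± 0.0903 CPM in controls (SD, n = 4 each), with a log2 fold change of 0.75 ± 0.39 (95% interval -0.12 to 1.62, edgeR adjusted p = 0.9998) that stayed between 0.57 and 1.04 when any 1 liver was left out. Xcr1, which marks cross-presenting dendritic cells, had 0.268, 0.442, 0.312 and 0.630 CPM in the HSC-PCK1-KO livers and 0.223, 0.283, 0.211 and 0.479 CPM in the controls, a log2 fold change of 0.46 ± 0.37 (95% interval -0.37 to 1.29). It was 0.18 without HSC-PCK1-KO liver 4 and 0.79 without control 4.

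Of the atypical receptors, Ackr2 takes up inflammatory CC chemokines and had 2.61, 2.05, 3.18 and 1.54 CPM in the HSC-PCK1-KO livers and 2.31, 2.50, 2.39 and 3.10 CPM in the controls. HSC-PCK1-KO livers 3 and 4 held its highest and lowest values (log2 fold change -0.14 ± 0.22, 95% interval -0.63 to 0.35). Ackr4, which takes up Ccl19, Ccl21 and Ccl25, had 4.18, 1.67, 2.97 and 3.88 CPM in the HSC-PCK1-KO livers and 2.48, 4.13, 3.53 and 2.03 CPM in the controls (log2 fold change 0.064 ± 0.31, 95% interval -0.62 to 0.75). Ackr3, a scavenger of Cxcl12, had 1.25, 0.986, 0.914 and 1.12 CPM in the HSC-PCK1-KO livers and 1.44, 0.778, 0.845 and 1.49 CPM in the controls (log2 fold change -0.10 ± 0.26, 95% interval -0.67 to 0.47). All 3 overlapped between the groups. Ackr1, the Duffy antigen receptor of venules and red cells, had 1.01, 0.845, 0.935 and 1.02 CPM in the HSC-PCK1-KO livers and 0.791, 1.06, 0.845 and 1.13 CPM in the controls. It gave the fold change nearest to 0 in the family, -0.010 ± 0.20 (95% interval -0.45 to 0.43), but 25.7% of its exon bases overlap Cadm3 on the same strand. For all 4 atypical receptors the 95% interval lay within 2-fold of no change.

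Of the 22 members that were not tested, 3 had no count in any liver: Ccl21b, Ccl27b and Cxcl15. For Ccl21b and Ccl27b, 100% and 97.9% of the windows occur in other genes, so that a count of 0 says little of them. Another 10 had 1 to 10 counts in all 8 livers together: Ccl1, Ccl17, Ccl20, Ccl26, Ccr10, Ccr4, Ccr8, Cxcl17, Cxcl3 and Cxcr1. The other 9 had more, up to 71 counts in all for Xcl1, and they were Ccl11, Ccl12, Ccl8, Ccr3, Ccr6, Ccr9, Cxcl5, Cxcr2 and Xcl1. In a fit without the filter on low counts, 19 of these 22 were tested and 0 were called. Ccr4 and Ccr8, named after their values were seen, were the 2 at an unadjusted p of 0.05 there (edgeR adjusted p = 0.940), with totals of 9 and 4 counts over the 8 livers. Ccl8, Ccl11 and Ccl12 lie in the group of genes around Ccl2 and Ccl7 on chromosome 11, where only the last-named 2 of 6 members could be tested.

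In all, 40 of the 60 members lay within 500 kb of another member in GENCODE M21, in 10 groups of neighbours. The group of Ccl5, Ccl9, Ccl6, Ccl3 and Ccl4 on chromosome 11 was tested whole, and its levels spanned means of 0.222 to 58.7 CPM with 3 log2 fold changes above 0 and 2 below. The Cxcr3 ligands Cxcl9, Cxcl10 and Cxcl11 on chromosome 5 were also tested whole, with log2 fold changes between -0.069 and 0.13. Neighbours did not share 1 direction in either group, and none of these fold changes passed the test.

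The livers of a group differed from each other in a pattern that ran through the family. Control 4 held the highest CPM of the 8 livers for 20 of the 38 tested members, or 52.6%, while it was highest for 15.4% of all genes tested. It was highest for 9 of the 14 receptors. Control 2 held the lowest CPM for 18 members, or 47.4%, and for 16.9% of all genes. For 13 members control 4 was highest and control 2 lowest: Ackr3, Ccl2, Ccl22, Ccl4, Ccl7, Ccr2, Ccr7, Cxcl10, Cxcl14, Cxcl16, Cxcl2, Cxcr3 and Cxcr4. Both livers had the same genotype and diet, and their sequencing depths were 49345782 and 44695439 counts. The sum of the members without Cxcl12 was 166, 176, 159 and 193 CPM in HSC-PCK1-KO livers 1 to 4, against 157, 130, 158 and 237 CPM in control livers 1 to 4. The sign of the family's median rested on control 4: without that liver the median log2 fold change was 0.19 and 10 of 38 members lay below 0.

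**Figure D3:**
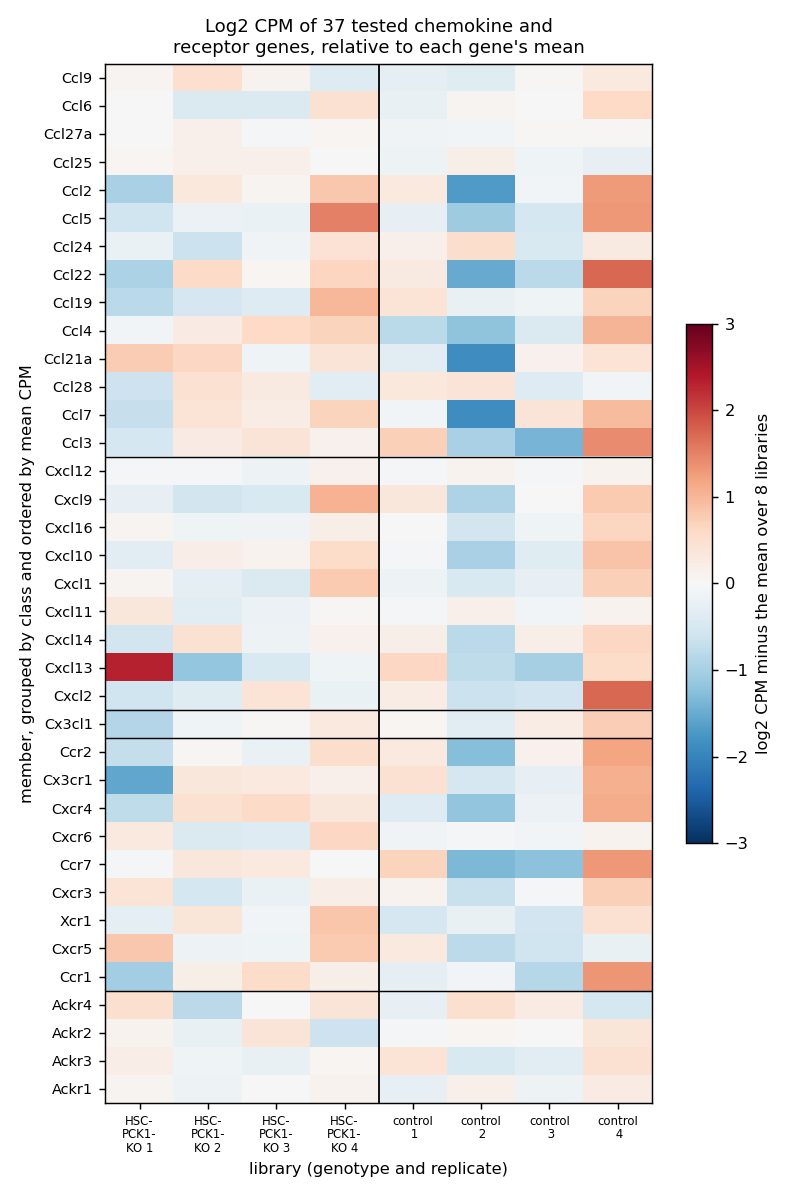
Log2 CPM of 37 of the 38 tested members in the 8 livers, each relative to the gene's mean over all 8 (red above, blue below), with genes in rows by class and the HSC-PCK1-KO livers left of the controls. Control 4 is red and control 2 blue for many ligands and receptors at once, and liver 4 is the reddest column of the HSC-PCK1-KO group for Ccl5, Cxcl9 and Ccl19.

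The members varied more between livers of a group than most genes did. The biological coefficient of variation, the relative spread that edgeR estimates beyond counting noise, had a median of 0.31 over the members and 0.147 over all genes. The median SE of the log2 fold change was 0.36 for members and 0.13 for all genes. At a like level the members also varied more: 32 of 38 lay above the median of all genes in their class of mean CPM, the exceptions being Ackr1, Ccl25, Ccl27a, Cxcl11, Cxcl12 and Cxcr6. The highest and lowest liver differed by over 5-fold for 14 members, among them Ccl2, Ccl5, Ccr2 and Cxcl13, and by under 2-fold for 7, which were Ackr1, Ackr3, Ccl25, Ccl27a, Ccl9, Cxcl11 and Cxcl12.

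**Figure D4:**
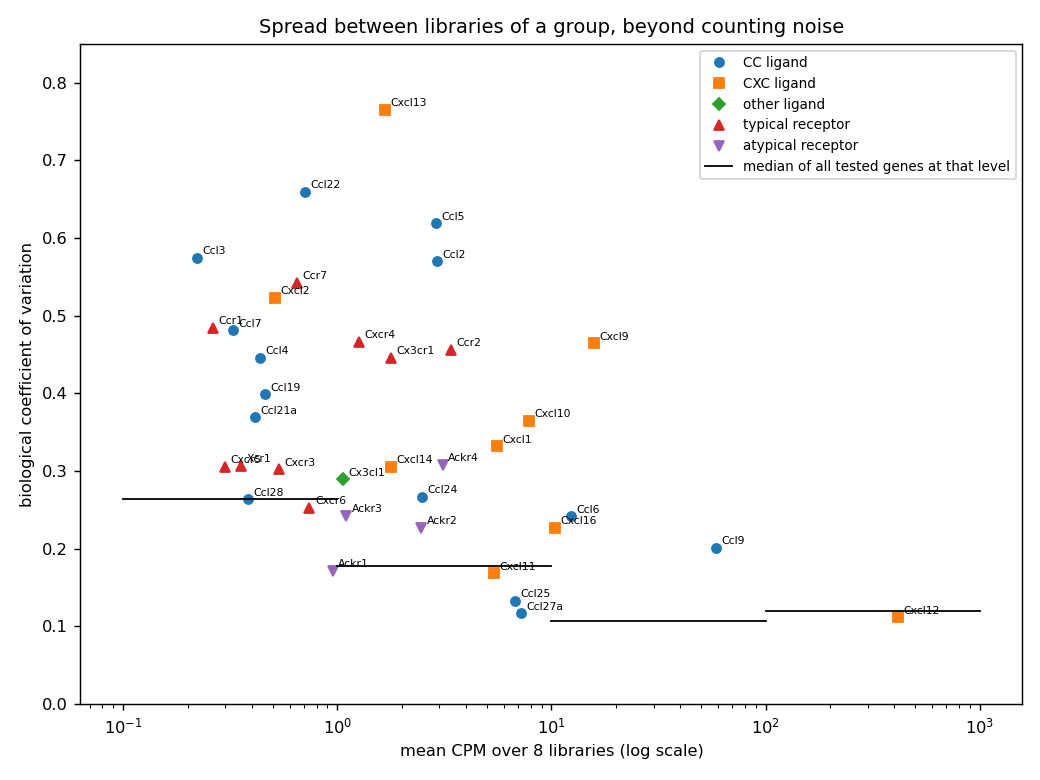
Biological coefficient of variation of 37 of the 38 tested members against its mean CPM over the 8 livers (log axis), with black lines at the median of all tested genes in 4 classes of mean CPM. Most members lie above the line of their class, and Cxcl13, Ccl22, Ccl5 and Ccl3 lie farthest up.

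Ligands and receptors were next set against each other across the 8 livers, over both genotypes, in log2 CPM. Of 24 textbook pairs, 15 had both genes tested, and 14 of the 15 correlations were positive, or 93.3% with a median r of 0.607. The other 321 combinations of a tested ligand and a tested receptor were positive in 74.5%, with a median r of 0.358, and 11 of them had an r at or above the lowest of the 3 named next. With Benjamini-Hochberg adjustment over the 15, 3 passed by Pearson's r in the exact permutation test (two-sided), and 0 passed by Spearman's rho. The count of 3 became 0 without control 2 and 1 without control 4. Ccl2 and Ccr2 had r = 0.973 (exact permutation p = 0.000248, adjusted p = 0.00372) and rho = 0.881 (exact permutation p = 0.00724, adjusted p = 0.109). Without HSC-PCK1-KO liver 1 and control 2, the livers farthest from the median of Ccl2, r was 0.918 (exact permutation p = 0.0139). When any 1 liver was left out, r stayed between 0.950 and 0.983.

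Ccl7 and Ccr2 had r = 0.917 (exact permutation p = 0.00104, adjusted p = 0.00781) and rho = 0.833 (exact permutation p = 0.0154, adjusted p = 0.109), and r = 0.738 without the same 2 livers (exact permutation p = 0.10). Cx3cl1 and Cx3cr1 had r = 0.879 (exact permutation p = 0.00734, adjusted p = 0.0367) and rho = 0.619 (exact permutation p = 0.115, adjusted p = 0.246). That relation rested on HSC-PCK1-KO liver 1 and control 4, since r was 0.311 without them (exact permutation p = 0.543). Cxcl12 and Cxcr4 had r = -0.0065 (exact permutation p = 0.986, adjusted p = 0.986) and rho = -0.17 (exact permutation p = 0.703). Each genotype alone has 4 livers, too few for a correlation within it.

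**Figure D5:**
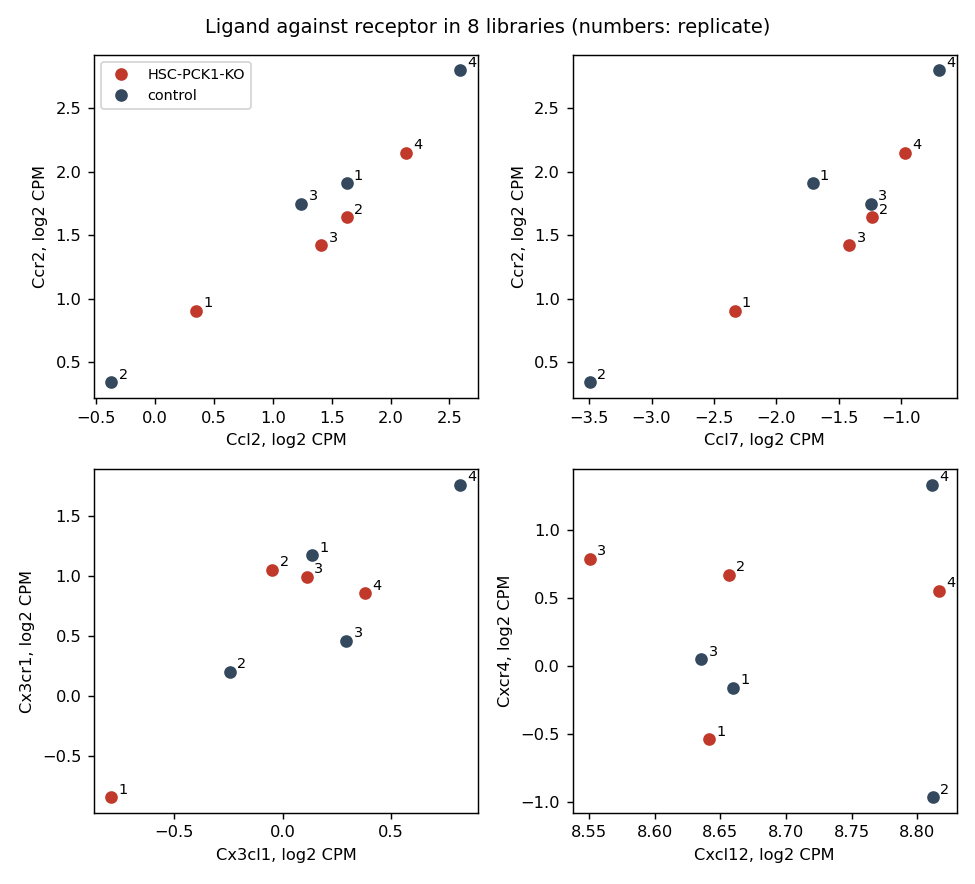
Receptor against ligand in log2 CPM over the 8 livers (red HSC-PCK1-KO, dark blue control, numbers for the replicate) for Ccl2 and Ccr2, Ccl7 and Ccr2, Cx3cl1 and Cx3cr1, and Cxcl12 and Cxcr4. The Ccl2 and Ccr2 points lie along a line between control 2 and control 4, and those of Cxcl12 and Cxcr4 do not.

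Summed over each of 3 lists, marker genes of the myeloid cells that carry many of these receptors were also highest in control 4. That was not particular to these lists. Control 4 was highest as well for the sums of Kupffer, NK, stellate and mesothelial markers, and of adhesion and receptor signalling genes. It was not highest for the T cell, B cell, dendritic, sinusoidal endothelial, hepatocyte and cholangiocyte sums. Within the 3 lists, not every marker followed its sum. Cd9 was highest in HSC-PCK1-KO liver 4, Fabp5 in control 1 and Chil3 in HSC-PCK1-KO liver 3. Summed over 8 markers of lipid-associated macrophages, such as Trem2 and Gpnmb, the level was 67.1 to 155 CPM in HSC-PCK1-KO livers and 52.2 to 237 CPM in controls, lowest in control 2 and highest in control 4. Of the 237 CPM in control 4, Spp1, named after its values were seen, gave 131, Gpnmb 16.8 and Trem2 4.48. Monocyte markers summed to 135 to 210 CPM in HSC-PCK1-KO livers and to 118 to 265 CPM in controls, again highest in control 4, with controls 2 and 3 both at 118 CPM, control 3 being the lower by a small margin. Of the 265 CPM in control 4, Lyz2 gave 155 and Csf1r 87.6, both named after their values were seen. Neutrophil markers summed to 5.07 to 7.40 CPM in HSC-PCK1-KO livers and to 3.51 to 12.0 CPM in controls, with control 2 lowest and control 4 highest. Of the 12.0 CPM in control 4, Csf3r, named after its values were seen, gave 7.16. Only 4 of the 8 neutrophil markers had enough counts to be tested. In all 3 lists, no marker was at 0 over the 8 livers. Their part in the members' pattern was not tested.

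Lymphocyte and other resident cells gave further sums. B cell markers summed to 7.80 to 11.3 CPM in HSC-PCK1-KO livers and 5.38 to 11.2 CPM in controls, beside the Cxcl13 and Cxcr5 values, and 7 of their 8 fold changes lay above 0. T cell markers summed to 3.68 to 7.85 CPM in HSC-PCK1-KO livers, highest in liver 4, the liver with the highest Ccl5 and Cxcl9, and to 3.61 to 5.42 CPM in controls. Of the 7.85 CPM, Cd8a, named after its values were seen, gave 1.79, against 0.290 to 0.416 CPM in HSC-PCK1-KO livers 1 to 3. Not every T cell marker followed the sum, since Cd4 was highest in control 2 and Cd3d in control 4. NK markers summed to 2.03 to 4.92 CPM in HSC-PCK1-KO livers and 1.89 to 5.92 CPM in controls. Dendritic cell markers summed to 110 to 137 CPM in HSC-PCK1-KO livers and 98.6 to 126 CPM in controls. Bst2, named after its values were seen, made up 96.2 to 119 CPM of that sum in HSC-PCK1-KO livers and 87.9 to 101 CPM in controls, and 5 of the 8 dendritic fold changes lay below 0. Kupffer cell markers summed to 413 to 629 CPM in HSC-PCK1-KO livers and 453 to 635 CPM in controls. Of the 629 CPM in HSC-PCK1-KO liver 1, Cd5l gave 216, Slc40a1 174 and Clec4f 116, all named after their values were seen. At an unadjusted p of 0.05 there was 1 of the 8 Kupffer markers, Cd163, beside 2.36% of all genes tested. Cd163 had a log2 fold change of -0.72 ± 0.22 (edgeR adjusted p = 0.9998), and 3 of the 8 fold changes lay above 0. What part these cells had in the members' values was not tested.

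The liver's own structural cells were present in both groups. Stellate cell markers summed to 299 to 385 CPM in HSC-PCK1-KO livers and 352 to 487 CPM in controls, and 0 of 10 passed the test. Of these 10 fold changes 9 lay below 0, with a median log2 fold change of -0.18. In 1 of the 10, Colec11, named after its values were seen, the groups did not overlap, beside 1.53% of all genes tested. It had 37.9 to 40.1 CPM in HSC-PCK1-KO livers and 41.0 to 44.9 CPM in controls. Groups also did not overlap for 1 of 8 B cell markers, 3 of 8 mesothelial markers and 1 of 39 receptor signalling genes. Sinusoidal endothelial markers summed to 273 to 365 CPM in HSC-PCK1-KO livers and 306 to 349 CPM in controls. Hepatocyte markers summed to 80753 to 97837 CPM in HSC-PCK1-KO livers and 81863 to 104114 CPM in controls. Cholangiocyte markers summed to 20.6 to 28.2 CPM in HSC-PCK1-KO livers and 23.9 to 28.7 CPM in controls. Markers of mesothelium, the cell layer of the liver capsule, summed to 3.19 to 5.95 CPM in HSC-PCK1-KO livers and 6.28 to 14.6 CPM in controls, which did not overlap. All 8 mesothelial fold changes lay below 0. At an unadjusted p of 0.05 there were 5 of these markers, beside 2.36% of all genes tested, and 0 after adjustment. Their part in the members' values was not tested.

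Genes around the chemokine system also passed no test. Of 8 tested genes that are not named as chemokines or receptors but act like them, 0 were called, and the median log2 fold change was -0.088. Among them Cmklr1, the receptor for chemerin, had 2.50 ± 0.340 CPM in HSC-PCK1-KO livers and 3.30 ± 0.605 CPM in controls (SD, n = 4 each), a log2 fold change of -0.40 ± 0.17 (edgeR adjusted p = 0.9998). Gpr182, an endothelial scavenger of chemokines, had a log2 fold change of -0.12, and Ppbp, a platelet chemokine, one of -0.24. Of 39 tested genes of receptor signalling, 0 were called and the median was -0.013. Rasgrp2, which activates Rap1 and through it integrins, had 34.0 ± 6.12 CPM in HSC-PCK1-KO livers and 24.8 ± 0.98 CPM in controls, a log2 fold change of 0.46 ± 0.12 (edgeR adjusted p = 0.9998). Arrb1, an arrestin, and Gnai2, an inhibitory G protein subunit, had log2 fold changes of -0.14 and -0.12.

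Of 17 tested inducers of chemokines, cytokines and transcription factors among them, 0 were called, and the median log2 fold change was 0.0068. Il1b, an inducing cytokine, had 4.70 ± 2.94 CPM in HSC-PCK1-KO livers and 3.23 ± 1.06 CPM in controls (SD, n = 4 each), a log2 fold change of 0.54 ± 0.41 (edgeR adjusted p = 0.9998). In HSC-PCK1-KO liver 4 it had 8.94 CPM, against 2.17 to 3.84 CPM in the others of that genotype. Myd88, the adaptor of Toll-like receptors, and Rela, an NF-kB subunit, had log2 fold changes of 0.075 and 0.078. Of 13 tested adhesion genes that let leukocytes stop on endothelium, 0 were called and the median was -0.16. Selp, the P-selectin of endothelium and platelets, had a log2 fold change of -0.21, and Itgal, an integrin of leukocytes, one of -0.22.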

How the data were processed

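Whole-liver mRNA of 8 mice was sequenced (poly(A) selection, strand-marking dUTP libraries, paired reads of 100 bases on DNBSEQ, per the labels' protocols). The authors deposited raw read counts per Ensembl gene ID, 1 table per liver. The submitters' processing notes name build GRCm39 and R 4.3.2, and no aligner, counter, annotation or strand setting is given in the sources used here. Groups and replicate numbers came from the sample titles, and the series' design text calls the livers biological replicates.

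Of 56953 IDs, 52029 matched a mouse symbol. The members and all gene lists were chosen with earlier results of these data known. Genes passing edgeR's filterByExpr (15669) were scaled by TMM and tested with the edgeR 4.0.16 quasi-likelihood test (robust, genotype only, R 4.3.3), with Benjamini-Hochberg adjustment over all of them and a threshold of 0.05. SE and 95% intervals come from that fit. Log2 CPM for correlations used a prior count of 2. Named members were those with the smallest p in each direction, the highest level per length in each class, and a set of well-known ligands and receptors. Alternatives were RLE and upper-quartile scaling, 2 other count filters, DESeq2 1.42.0, limma-voom (limma 3.58.1) with sample weights, a replicate block, a prior count of 0.5, and each liver left out. The values of some single genes are not reported here. The test was checked on simulated counts, with 2-fold changes placed only in genes with a mean of at least 1 CPM. That check does not cover changes in the 15 tested members with a mean under 1 CPM. Counting intervals and depth cover counting error only.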

Additional observations from a re-analysis of the deposited data

Results flagged for a closer look

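In 4 groups of 4 livers, a single liver lay far from the other 3 of its group by Dixon's criterion, out of 74 groups checked over 37 tested members. Chance alone flags about 1 in 20 groups, or 3.7 here. Ccl5 had 6.83 CPM in HSC-PCK1-KO liver 4, where the other HSC-PCK1-KO livers had 1.56 to 2.09 CPM. Cxcl9 had 29.8 CPM in that liver, with 9.77 to 12.0 CPM in the others of the group. Ccl19 had 0.874 CPM there, with 0.223 to 0.312 CPM in the others, and its counts are uncertain because of its near-identical copies. The sum of T cell markers was also highest in HSC-PCK1-KO liver 4, at 7.85 CPM, of which Cd8a gave 1.79. Cd4 was instead highest in control 2 and Cd3d in control 4. The part of T cell markers in these values was not tested. Cxcl13 had 6.05 CPM in HSC-PCK1-KO liver 1, with 0.503 to 1.08 CPM in the other livers of that genotype.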

How the results depend on the processing

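Under every other scaling, filter, tool and design that was run, and with any 1 liver left out, 0 members were called. Members at an unadjusted p of 0.05, 0 with all 8 livers in the fit as reported, were Ccr4 and Ccr8 without the filter, Cxcr5 with the replicate block and without control 1, Ccl19 without HSC-PCK1-KO liver 4, Ccl25 without control 2 and Ccl4 without control 4. In the other settings there were 0. The genes called over the whole table were 0 by every edgeR fit on all 8 livers, 0 by limma-voom and 6 by DESeq2, and between 0 and 1 when 1 liver was left out. The median log2 fold change of the members was -0.066; it was 0.0065 by limma-voom with sample weights, 0.0020 with the replicate block, and between -0.15 and 0.19 with 1 liver left out, the extremes being without control 2 and without control 4. The count of ligand and receptor pairs passing, 3, stayed at 3 with both other scalings and with a prior count of 0.5, and lay between 0 and 4 with 1 liver left out. The cause of these changes was not tested.

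By limma-voom the log2 fold change was 0.022 for Ackr1, -0.085 for Ackr4, 0.023 for Ccl2, -0.0086 for Cxcl1 and -0.039 for Cxcr6. With the replicate block it was 0.044 for Ccl2 and 0.0044 for Cxcl16. Leaving out 1 liver at a time gave ranges of -0.092 to 0.084 for Ackr1, -0.32 to 0.021 for Ackr2, -0.24 to 0.058 for Ackr3, -0.095 to 0.28 for Ackr4, -0.43 to 0.46 for Ccl2, -0.49 to 0.98 for Ccl5, -0.0069 to 0.29 for Ccl9, -0.64 to 0.11 for Ccr2 and -0.55 to 0.016 for Cx3cr1. The ranges were -0.25 to 0.40 for Cxcl1, -0.091 to 0.57 for Cxcl10, -0.59 to 1.12 for Cxcl13, -0.21 to 0.22 for Cxcl16, -1.01 to 0.14 for Cxcl2, -0.60 to 0.21 for Cxcl9, -0.30 to 0.19 for Cxcr3, -0.12 to 0.77 for Cxcr4 and -0.13 to 0.27 for Cxcr6.

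Over all genes tested, livers of the same number did not deviate together (correlations of -0.033, -0.329, -0.059 and 0.058 for numbers 1 to 4). Control 4 was the best match of HSC-PCK1-KO liver 4, while livers 1 to 3 matched another number best. Among members, liver 4 was the highest of its group in both genotypes for Ccl2, Ccl5, Ccr2, Cxcl1, Cxcl9 and Cxcl10. By those correlations the numbers were not taken to pair the mice, and the block called 0 members and 0 genes. Without the filter 57 members were tested, 19 of them from the 22 with low counts, and 0 were called.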
